A study of Mus musculus with 24 samples.

Results

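The genes described here encode 45 subunits and partners of chromatin complexes, out of 21887 protein-coding genes on mouse chromosomes 1 to 19, X and Y. They were grouped by complex membership, and the choice was made with earlier results of these data known: 15 SWI/SNF genes (the BAF and PBAF remodellers), 12 NuRD genes, 9 genes of the KMT2 (COMPASS-like) methyltransferases with the acetyltransferases CBP and p300, and 9 Polycomb genes. Every peak that overlapped a gene's RefSeq span or the 10 kb on either side was assigned to that gene, and peaks of all libraries of an assay were merged into regions. This gave 221 H3K4me1 regions of 58663, 523 PU.1 regions of 197216 and 272 ATAC regions of 79094. All 45 genes had at least 1 region in each assay, and no region lay in the windows of 2 of them. The question was whether the regulatory regions of the remodeller genes themselves shift when Utx, Smarca4 or Chd4 is lost.

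Utx (gene Kdm6a) is a histone demethylase that sits in the KMT2C and KMT2D complexes, which place monomethyl marks on lysine 4 of histone H3 (H3K4me1) at enhancers. SWI/SNF complexes slide and evict nucleosomes with the ATPases Smarca4 (Brg1) and Smarca2. NuRD joins nucleosome remodelling by Chd4 or Chd3 to deacetylation by Hdac1 and Hdac2, and its subunits are exchangeable: a NuRD particle carries Mta1, Mta2 or Mta3. Polycomb complexes methylate lysine 27 of histone H3 through Ezh1 or Ezh2, the mark that Utx can remove. PU.1 is an ETS family transcription factor of blood progenitors, and ATAC-seq marks open chromatin by transposase insertion.

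All libraries came from lineage-negative bone marrow progenitors of C57BL/6 mice, which hold stem and progenitor cells. ChIP was done in cells with Utx (UTX WT) and in Utx knockouts (UTX KO), with 2 libraries per genotype for H3K4me1 and 3 per genotype for PU.1, and 1 input per genotype that is not used here. The ATAC libraries all carried Cas9. In a first set, UTX WT and UTX KO cells received either an empty guide vector or a Smarca4 guide, with 2 libraries in each of the 4 groups. In a second set, UTX WT cells received the empty vector or a Chd4 guide, with 2 libraries each. For the second set the labels record 7 days in semi-solid medium, 5 days in liquid culture and ATAC at 6 days after editing. That protocol text speaks of editing Brg1 and is not given for the first set, and the labels name no age, sex or Utx allele. Nothing in the labels tells whether libraries of a group came from different mice or cultures, so the p-values below measure the spread between these libraries, which may be technical.

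The lists hold peak positions, not read counts, so sequencing depth is unknown, and the number of peaks stands in for it. H3K4me1 lists held 43699 to 54645 peaks, PU.1 lists 137836 to 171514, ATAC lists of the Smarca4 set 29858 to 50884 and those of the Chd4 set 24797 to 48655. In each ATAC comparison both perturbed lists were shorter than both reference lists: 40424 and 40974 peaks in UTX KO against 50796 and 50884 in UTX WT with the empty vector, and 24797 and 34404 with the Chd4 guide against 41449 and 48655 without. The exact permutation p for the list length was 0.33 in each, the smallest that 2 against 2 can give (two-sided). A peak list cannot show whether a guide edited its gene. Kdm6a itself had peaks in every UTX KO library, with 21.4 and 30.6 kb of H3K4me1 islands against 27.0 and 39.2 kb in UTX WT, and a peak list cannot check the knockout. All 8 progenitor marker genes had ATAC peaks, as did 21 of the 22 markers of other lineages; the haemoglobin gene Hba-a1 had none.

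Most of the regions lay inside the genes. Within the annotated spans were 154 of the 221 H3K4me1 regions, 398 of 523 PU.1 regions and 199 of 272 ATAC regions. The number per gene ran from 1 to 17 for H3K4me1 (median 4), from 3 to 80 for PU.1 (median 9) and from 1 to 35 for ATAC (median 5). Arid1b, a DNA-binding BAF subunit and the longest of the 45 genes, held the highest number in all 3 assays. Mta3 led NuRD with 29 PU.1 regions, and Mta3 and Gatad2a each held 17 ATAC regions. Crebbp and Kmt2c led the KMT2 group, with 10 H3K4me1 regions and 25 PU.1 regions, and Asxl2 led Polycomb for PU.1 with 17. Of the ATAC regions, 93.4% overlapped an H3K4me1 region and 81.2% a PU.1 region, against 76.6% and 71.4% of all ATAC regions.

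The start sites of these genes were open in nearly every library. RefSeq (GRCm38.p6) gives a start site and promoter for 37 of the 45; those of Arid2, Smarce1, Chd3, Mta3, Mbd2, Hdac1, Kmt2b and Kdm6b are not used here. In all 8 libraries of the Smarca4 set, 35 of the 37 genes had an ATAC peak within 1 kb of the start site, against 54.4% to 58.0% of all 17492 genes with a start site. The 2 exceptions, Ncoa6 and Smarcd2, have a listed start site 33128 and 5366 bases inside the annotated span, and both had ATAC peaks in these 8 libraries within 1 kb of the 5′ end of the span. PU.1 islands lay within 1 kb of the start site of 33 to 36 of the 37 genes, against 57.95% to 61.25% of all genes. H3K4me1 islands lay within 1 kb at 29 to 36 of the 37, against 60.88% to 65.81% of all genes. They covered the start site itself at only 6 to 13 of the 37.

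Promoters of selected genes are shown as the 250 bases before a RefSeq start site (GRCm38.p6), 5′ to 3′ on the gene's strand. Capitals mark matches on either strand to any of 3 short words, which can overlap one another. The first is the PU.1 type ETS word GAGGAAG. The second, CCGGAAG, is a word of other ETS factors. The third is the GATA factor word AGATAA. Chd4 has 2 listed start sites, of which the lower-coordinate one is used. The bases before the other, chr6:125095913-125096162, hold none of the 3 words. Smarca4 and Chd4 are shown as the targets of the guides, Mta1 because its start-site peak was absent with the Chd4 guide, and Mta2 and Smarcc1 because each holds CCGGAAG on both strands or in 2 copies beside a PU.1 island in every PU.1 library.
In that order, each with its place and strand:
Smarca4, chr9:21615919-21616168, plus strand: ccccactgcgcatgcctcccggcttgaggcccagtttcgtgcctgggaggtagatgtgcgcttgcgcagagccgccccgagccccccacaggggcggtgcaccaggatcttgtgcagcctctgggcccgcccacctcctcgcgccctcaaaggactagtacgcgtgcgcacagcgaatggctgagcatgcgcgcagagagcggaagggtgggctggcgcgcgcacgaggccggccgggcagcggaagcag
Chd4, chr6:125095731-125095980, plus strand: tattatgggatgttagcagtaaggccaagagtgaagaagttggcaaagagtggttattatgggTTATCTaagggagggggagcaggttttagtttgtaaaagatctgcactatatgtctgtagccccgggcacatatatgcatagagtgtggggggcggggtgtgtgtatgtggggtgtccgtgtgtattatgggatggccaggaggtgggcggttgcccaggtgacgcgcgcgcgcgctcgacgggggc
Mta1, chr12:113098028-113098277, plus strand: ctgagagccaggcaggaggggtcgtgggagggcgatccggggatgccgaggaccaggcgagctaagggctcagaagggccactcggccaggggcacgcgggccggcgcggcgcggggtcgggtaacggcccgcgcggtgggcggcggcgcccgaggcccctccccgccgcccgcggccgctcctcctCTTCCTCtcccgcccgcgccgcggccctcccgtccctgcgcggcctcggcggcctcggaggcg
Mta2, chr19:8941670-8941919, plus strand: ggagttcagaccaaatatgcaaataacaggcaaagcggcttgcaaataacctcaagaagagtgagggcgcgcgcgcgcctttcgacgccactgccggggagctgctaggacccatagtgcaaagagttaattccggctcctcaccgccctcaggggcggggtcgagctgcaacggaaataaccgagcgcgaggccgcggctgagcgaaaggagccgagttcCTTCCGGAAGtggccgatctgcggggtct
Smarcc1, chr9:110131774-110132023, plus strand: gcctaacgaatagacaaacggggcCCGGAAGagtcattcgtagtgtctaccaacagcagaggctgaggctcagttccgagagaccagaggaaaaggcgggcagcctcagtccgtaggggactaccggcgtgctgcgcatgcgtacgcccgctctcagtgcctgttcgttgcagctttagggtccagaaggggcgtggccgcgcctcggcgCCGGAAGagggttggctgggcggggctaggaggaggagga
The PU.1 type word was found in 5 of 37 members (13.5%) and in 12% of all 27025 genes with a promoter. CCGGAAG was found in 7 of 37 (18.9%) against 7.83%, and AGATAA in 2 of 37 (5.41%) against 11.4%. The members' promoters had a median GC content of 67.6%, against 52% for all 27025 genes. Those 27025 genes were not limited to protein-coding ones, whereas all members are protein-coding, so the 2 sets differ in kind. A match is a description of letters and not a binding site.

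A region was called lost when every reference library had a peak there and no perturbed library did, gained when the pattern was the opposite, and kept when all libraries of both groups had a peak. All regions, the background below, include those further than 10 kb from a protein-coding gene. Among regions within 10 kb of one, 10.8% were lost and 50.5% kept for H3K4me1, 1.2% and 52.5% for PU.1, and 11.4% and 58.3% for UTX KO ATAC. With the Smarca4 guide these were 5.62% and 61.5% in UTX WT and 7.53% and 60.3% in UTX KO, and with the Chd4 guide 12.9% and 46.1%. Covered length, the number of bases under peaks in a gene's window, was compared gene by gene with limma over all protein-coding genes on the log2(bases + 200) scale, with Benjamini-Hochberg adjustment. A lower covered length can mean fewer cells with the open or marked state, less signal per cell, or a shorter list, for instance from lower depth. Peak lists of bulk cells cannot tell these apart. Across the 6 comparisons 10 of the 45 genes had no lost or gained region: Bmi1, Brd7, Brd9, Chd4, Gatad2b, Kmt2b, Mbd3, Smarcb1, Smarcd2 and Suz12.

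**Figure D1:**
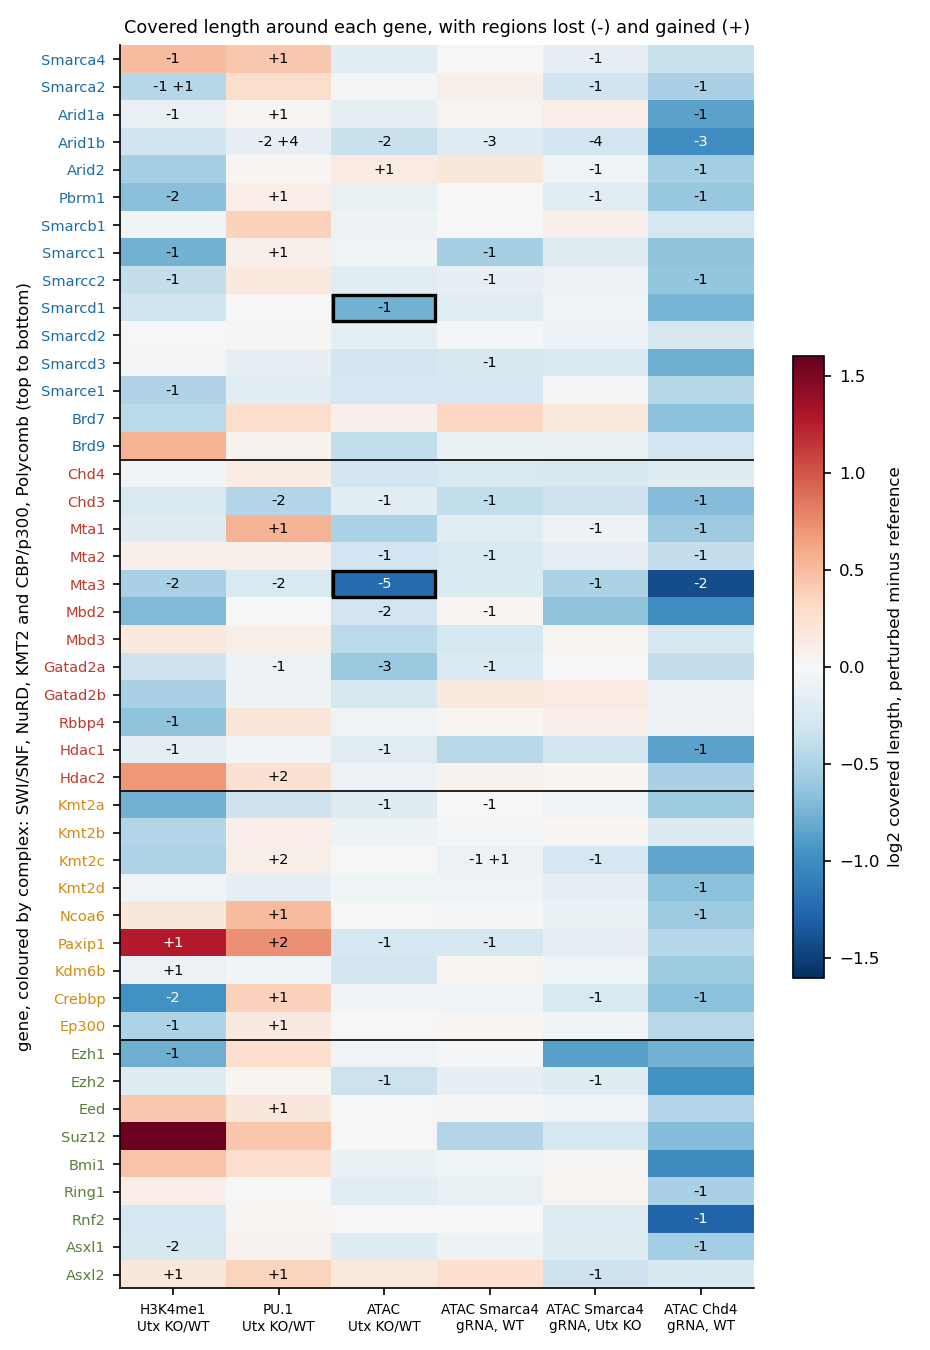
Colour gives the log2 difference in covered length (perturbed minus reference) for the 45 genes (rows, by complex) in 6 comparisons (columns), and numbers give regions lost (-) and gained (+). Boxes mark the 2 gene tests past an adjusted p of 0.05, Mta3 and Smarcd1 in UTX KO ATAC; the Chd4 column is blue throughout, a direction that does not hold once lists are scaled to equal total length.

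In H3K4me1, UTX KO cells lacked 18 of the 221 regions and had 4 that UTX WT cells lacked. Losses made up 8.14% of member regions against 10.9% of all regions (6419 of 58663), and gains 1.81% against 2.15%, so neither share was above the background. Kept in all 4 libraries were 135 (61.1%), against 45.9% of all regions. The 18 losses fell in 14 genes, and 14 of the 18 lay within the gene span. None of the 14 with a known start site was within 1 kb of it. Lost islands were narrow, with a median of 3499 bases against 9999 for the 135 kept ones, and 3 of the 18 overlapped an ATAC region against 127 of the 135 kept (16.7% and 94.1%). Among all lost and kept regions the medians were 3199 and 6599 bases, and 31.2% and 85.7% overlapped an ATAC region.

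Genes of all 4 complexes had such losses. Crebbp, which encodes CBP, lost 2 of 10 islands: chr16:4095201-4098799 (mm10), with 2599 and 2799 bases covered in UTX WT and 0 in both UTX KO libraries, and chr16:4168201-4178199, with 6798 and 8599 bases covered in UTX WT and 0 in UTX KO. Crebbp as a whole had 30.2 and 66.6 kb in UTX WT and 18 and 28.8 kb in UTX KO. The groups did not overlap, but the 2 UTX WT libraries lay further apart than the group means, and the difference did not pass (log2 -0.97, SE 0.53, adjusted p = 0.773). Ezh1, a Polycomb methyltransferase, lost chr11:101185801-101196599, with 10799 and 8199 bases covered in UTX WT, while its total was 20.4 ± 4.3 against 11.8 ± 2.8 kb (SD, n = 2 each, adjusted p = 0.707). Asxl1, a Polycomb partner often mutated in myeloid disease, and Pbrm1, the PBAF bromodomain subunit, each lost 2 islands within the gene.

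Single islands were lost at Ep300, Rbbp4, Smarce1, Hdac1, Smarca4, Smarca2, Smarcc1, Smarcc2 and Arid1a. The Smarca4 island, chr9:21651801-21654399, lay 35632 bases from the start site with 1399 and 2599 bases covered in UTX WT. The 4 gained islands were at Paxip1, Asxl2, Kdm6b and Smarca2. Kdm6b encodes the H3K27 demethylase most like Utx, and its gained island within the gene, chr11:69401001-69403799, covered 999 and 2799 bases in UTX KO. No gene passed the covered-length test among the 45, against 219 of 17091 genes (1.28%). That number over all genes was 0 when any 1 of the 4 libraries was left out and with a pseudocount of 1000 bases. The members' median log2 difference was -0.24 against -0.11 for all genes, and after scaling lists to equal total length it was 0.00 against 0.13, with 23 members higher and 22 lower. Without UTX WT library 1, whose absence relaxes the rule, 39 regions were lost (18.1%, against 23.9% of all regions). Gains were 14 without UTX WT library 2 (7% against 8.58%). They were 6 and 7 without UTX KO library 1 or 2 (2.75% and 3.2%, against 4.9% and 5.95%). Of 3 erythroid marker genes the summed H3K4me1 length, without scaling, was 33.5 to 47.6 kb in UTX WT and 17.7 to 23.7 kb in UTX KO. B cell markers (57.4 to 70.2 and 78.8 to 135 kb) and granulocyte markers (11.4 to 19 and 21.2 to 25.2 kb) were higher in UTX KO, progenitor markers lower (437 to 526 and 344 to 430 kb), and the other 4 lists overlapped. Their part in the result was not tested.

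Paxip1, a subunit of the KMT2C and KMT2D complexes, was the one member whose H3K4me1 difference reached an unadjusted p under 0.05, as did 7.96% of all genes. It had 3.60 and 4.80 kb in UTX WT and 10.8 and 9.80 kb in UTX KO, so the groups did not overlap. The log2 difference was 1.27 (SE 0.30), with a limma p of 0.0127 before and an adjusted p of 0.361 after Benjamini-Hochberg adjustment over all genes. The gained island, chr5:27742601-27746999, covered 4199 and 3999 bases in UTX KO and lay inside the gene, 44551 bases from the start site. PU.1 was also higher there, with 3.20, 2.60 and 3.20 kb in UTX WT and 5.39, 4.19 and 5.79 kb in UTX KO and 2 gained islands of 199 to 599 bases (log2 0.73, SE 0.16, adjusted p = 0.12). ATAC coverage was not higher: the gene had 2.05 and 2.09 kb in UTX WT and 1.82 and 1.53 kb in UTX KO, and 1 ATAC region of 293 and 243 bases was lost.

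PU.1 regions went the other way in number in the lists as deposited. UTX KO libraries lacked 7 of the 523 PU.1 regions and had 20 that all UTX WT libraries lacked, which are 1.34% and 3.82% of member regions against 1.16% and 2.87% of all regions. Kept were 286 (54.7%), against 50% of all. UTX KO lists were also longer on average, 157151 ± 17019 against 141539 ± 3215 peaks (SD, n = 3 each, exact permutation p = 0.3, two-sided). With every list trimmed by score to the length of the shortest, 10 member regions were lost and 13 gained (2.04% and 2.65%). Over all regions 3715 were then lost and 3212 gained (2.1% and 1.82%), so the excess of gains did not hold there. The KMT2 group had 7 gains and 0 losses among 100 regions: 2 each at Paxip1 and Kmt2c and 1 each at Ncoa6, Crebbp and Ep300. NuRD held 5 of the 7 losses, 2 at Chd3, 2 at Mta3 and 1 at Gatad2a. Without UTX KO library 2 the gains numbered 42 (8.12%, against 6.18% of all regions). Without UTX KO library 1 or UTX WT library 1 the losses numbered 13 and 11 (2.56% and 2.12%, against 2.58% and 1.83%). None of the gained or lost PU.1 regions with a known start site lay within 1 kb of it.

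The 2 lost PU.1 islands at Chd3, the alternative NuRD ATPase, both overlapped open chromatin. One, chr11:69364201-69365599 inside the gene, had 1199, 1399 and 1199 bases covered in UTX WT and 0 in the 3 UTX KO libraries. The other, chr11:69340001-69341399, had 799, 1199 and 1199 bases covered in UTX WT. The ATAC region at the second one, chr11:69340409-69341148, was present in all 8 libraries of the Smarca4 set, with 501 to 736 bases covered. At this site the PU.1 island was absent in UTX KO while the ATAC peak was present. Chd3 as a whole had 7.62, 6.62 and 7.42 kb of PU.1 islands in UTX WT and 6.02, 4.02 and 5.62 kb in UTX KO, with no overlap between groups (log2 -0.47, SE 0.17, adjusted p = 0.273).

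Among the gains, Hdac2, the NuRD deacetylase, had 2 islands of 399 to 599 bases that were absent in UTX WT. Smarca4 had 1, chr9:21694201-21695799, with 799, 999 and 1399 bases covered in UTX KO and an ATAC region beneath it. Smarca4 as a whole had 4.39, 5.20 and 5.20 kb in UTX WT and 6.99, 5.99 and 7.19 kb in UTX KO, which do not overlap (log2 0.43, SE 0.12, adjusted p = 0.188). A gained Crebbp island, chr16:4168401-4168799, lay within the H3K4me1 island that UTX KO cells lacked. Arid1b gained 4 and lost 2 of 80. Mta1, Eed, Smarcc1, Arid1a, Pbrm1 and Asxl2 gained 1 each. Of the 45 genes 0 passed the covered-length test against 179 of 18827 (0.951%) of all genes (117 to 164 when 1 library was left out), while 9 members had an unadjusted p under 0.05, as did 16.1% of all genes. All 9 Polycomb genes had higher mean PU.1 coverage in UTX KO, also with lists scaled to equal total length. Their median log2 difference was 0.17 against 0.01 for all genes, and 0 of them passed. Over all 45 members 33 were higher, but without UTX WT library 1 this became 22 higher and 23 lower. Of 29 further Polycomb genes 13 were higher and 15 lower (median log2 difference -0.07). Of 21 other remodeller genes 18 were higher and 3 lower (0.20).

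Among PU.1 islands kept in all 6 libraries, 1 of 286 at the member genes had a width that passed limma, against 1404 of 98590 (1.42%). It lies inside Smarca2, the SWI/SNF ATPase that can replace Smarca4, at chr19:26696801-26697599. It covered 799 bases in each UTX WT library and 599 in each UTX KO library, a difference of a single 200-base step of the island grid (log2 -0.42, SE 0.03, adjusted p = 0.00395). Libraries of a group had the same width there, so its error comes from the spread that limma pools over all kept islands. In the other 5 comparisons limma passed 0 kept regions (0%) among members and among all, while 7.26% to 22.6% of all kept regions had an unadjusted p under 0.05.

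Open chromatin in UTX KO cells with the empty vector lacked 19 of 229 ATAC regions and had 1 that UTX WT cells lacked. These are 8.3% and 0.437% of member regions, against 11.3% and 1.92% of all regions, and 153 (66.8%) were kept, against 55.9%. The losses were unevenly spread over the complexes: NuRD had 13 of 73 regions (17.8%), SWI/SNF 3 of 83 (3.61%), the KMT2 group 2 of 40 (5%) and Polycomb 1 of 33 (3.03%). The NuRD losses were 5 at Mta3, 3 at Gatad2a, 2 at Mbd2 and 1 each at Chd3, Mta2 and Hdac1. The 6 further NuRD genes of a companion list (Rbbp7, Chd5, Cdk2ap1, Zmynd8, Sall4 and Kdm1a) lost 1 of 32 (3.12%), and 14 other BAF genes lost 14 of 72 (19.4%), a higher share than that of NuRD. The difference between complexes was not tested, since regions of 1 gene are not replicates of a condition.

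**Figure D2:**
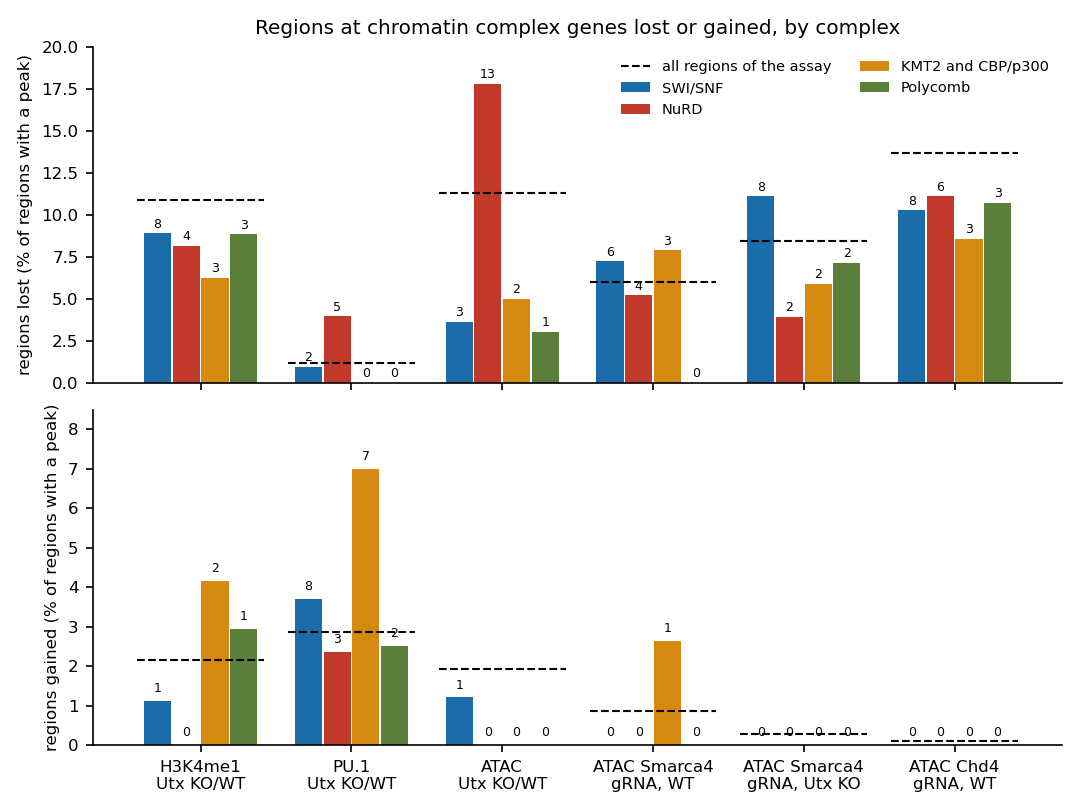
Bars give the share of each complex's regions (%) that were lost (upper panel) or gained (lower panel) in each comparison, with the number of regions above each bar; dashed lines give the share among all regions of that assay. In UTX KO ATAC the NuRD bar stands at 17.8%, above the line at 11.3%, and the other 3 complexes stand at 5% or below.

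Mta3 and Smarcd1 were the 2 members whose ATAC covered length fell past the threshold in UTX KO, out of 751 of 16475 genes that passed (4.56%; 690 of them lower, which is 4.19%), and 9 members had an unadjusted p under 0.05, as did 24.2% of all genes. With lists scaled to equal total length 426 genes passed, 107 higher and 319 lower. Mta3 had 8.06 and 8.72 kb of ATAC peaks in UTX WT and 3.38 and 3.55 kb in UTX KO. The log2 difference was -1.23 (SE 0.19, adjusted p = 0.0277), and -0.91 (adjusted p = 0.0224) after scaling. Counting only the gene span gave -1.33 (adjusted p = 0.027).

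The 5 Mta3 regions absent in UTX KO were spread along the gene and its downstream flank. The widest, chr17:83816129-83817305, had 1122 and 1168 bases covered in UTX WT with the empty vector, 1043 and 1042 with the Smarca4 guide, and 0 in all 4 UTX KO libraries. A second, chr17:83768202-83768737, had 455 and 532 bases with the empty vector, 421 and 470 with the Smarca4 guide, and 0 in all 4 UTX KO libraries. These 2 and chr17:83821838-83822243 were thus present in all 4 UTX WT libraries of the set and in none of the 4 UTX KO libraries. The UTX KO libraries with the Smarca4 guide were not used to call these losses. In the Chd4 set, which has UTX WT cells only, neither of the first 2 regions had a peak in any of the 4 libraries, while the third had one in 1 of them. So absence there also occurred with Utx present, under the culture recorded for that set.

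The remaining 2 lost regions were weaker. The region chr17:83720359-83721119 had 470 and 761 bases covered with the empty vector in UTX WT, and chr17:83830586-83831268, nearest to Haao, had 380 and 217. The first lay inside a lost H3K4me1 island, chr17:83719001-83721999, with 2799 and 1999 bases covered in UTX WT and 0 in UTX KO. A second H3K4me1 island of Mta3, chr17:83743601-83752799, was also lost, and so were 2 of 29 PU.1 islands. Mta3 as a whole had 82.5 and 104 kb of H3K4me1 islands in UTX WT and 56.7 and 73.1 kb in UTX KO, and 26.0, 27.0 and 30.4 kb of PU.1 islands against 24.8, 22.2 and 23.0 kb. Both were lower in UTX KO without overlap, and neither passed (adjusted p = 0.773 and 0.319). The map of peaks over Mta3 shows all 3 assays by library.

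**Figure D3:**
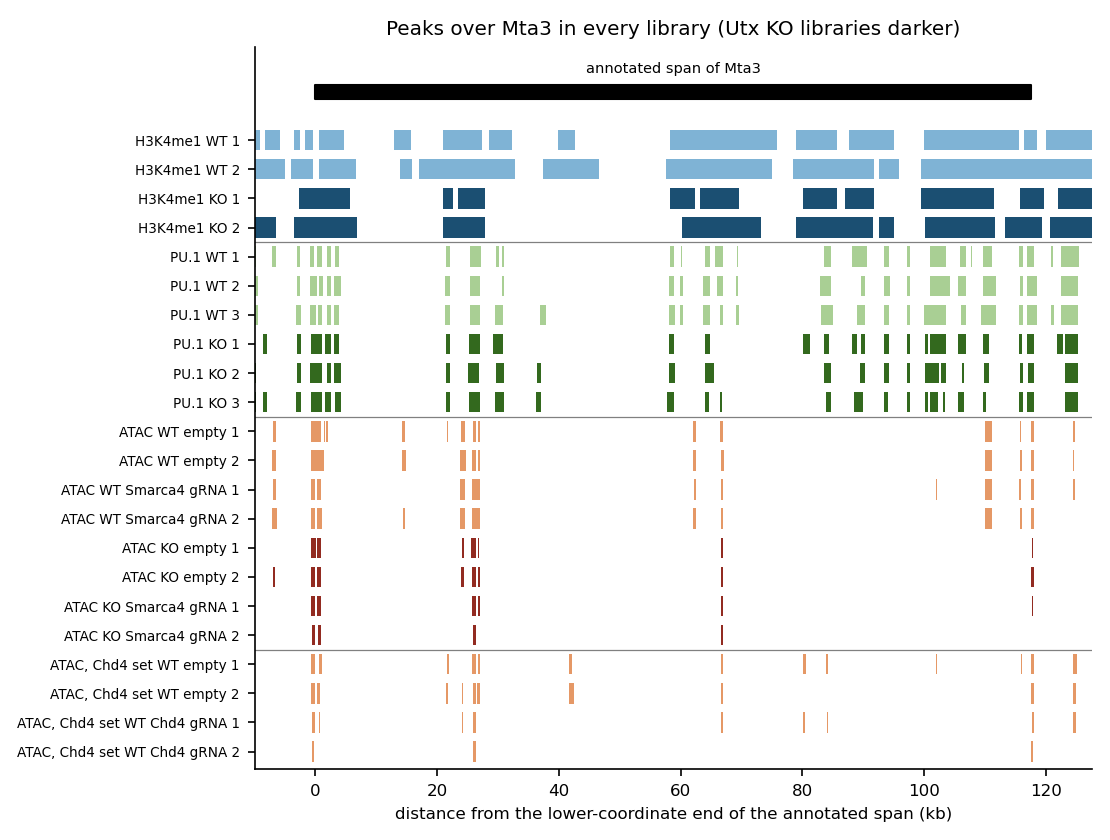
Each row is a library and each bar a peak over Mta3, by distance from the lower-coordinate end of the annotated span (kb), with UTX KO libraries in darker colours. The ATAC peaks near 62 and 110 kb appear in the 4 UTX WT libraries of the Smarca4 set and in none of the 4 UTX KO libraries or the 4 libraries of the Chd4 set.

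Smarcd1, a BAF accessory subunit, had 1.30 and 1.19 kb of ATAC peaks in UTX WT and 0.581 and 0.738 kb in UTX KO (log2 -0.76, SE 0.13, adjusted p = 0.0388). The difference lay in 1 region of the flank, chr15:99714932-99715596, which had 593 and 580 bases covered with the empty vector, 292 and 363 with the Smarca4 guide, and 0 in all 4 UTX KO libraries. Over the gene span alone the sign turned, to a log2 difference of 0.17 (adjusted p = 0.634). Mta3 and Smarcd1 both lost the call when any 1 of the 4 libraries was left out (adjusted p from 0.1 to 0.162 and from 0.0968 to 0.186) and with genes without peaks included (0.0803 and 0.0799), and Smarcd1 also after scaling (0.151). Over all genes 208 to 410 passed when 1 of the 4 libraries was left out.

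Gatad2a, the NuRD subunit that bridges Mbd and Chd4 proteins, came next. It had 9.47 and 11.0 kb in UTX WT and 6.21 and 7.17 kb in UTX KO, and lost 3 of 17 regions (log2 -0.60, SE 0.14, adjusted p = 0.0762). Mbd2, a methyl-CpG binding subunit, lost 2 of 10 regions. Arid1b lost 2 of 30, with 14.5 and 16.6 kb against 11.9 and 12.2 kb (log2 -0.36, SE 0.14, adjusted p = 0.185). Single regions were lost at Chd3, Mta2, Hdac1, Kmt2a, Paxip1 and Ezh2. The gained region, at Arid2, was narrow, with 200 and 238 bases covered in the UTX KO libraries with the empty vector and 0 in both with the Smarca4 guide. The median width of the 19 lost regions was 349 bases against 948 for the 153 kept ones, and none of the 10 with a known start site was within 1 kb of it.

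The direction over all members depended on how the lists were scaled, which shifts every gene of a library alike. All 12 NuRD genes had lower mean ATAC coverage in UTX KO as deposited, and 7 were higher and 5 lower after scaling. In UTX KO 39 of the 45 genes had lower ATAC coverage (median log2 difference -0.17 against -0.20 for all genes), but with lists scaled to equal total length 35 were higher (0.14 against 0.09). Trimming every list to the length of the shortest, by width, left 6 regions lost and 5 gained among members, 2.87% and 2.39%, against 5.82% and 5.46% of all regions. Mta3 had 3 of those 6 losses. Leaving out UTX WT library 1 or 2, which relaxes the rule, raised the number of losses to 33 and 32. These are 15.3% and 14.9% of member regions, against 20.7% and 20.1% of all regions. Marker genes of other lineages also differed between genotypes in the same libraries, in sums that were not scaled. Total ATAC length was itself 30.4 to 34.2 Mb in UTX WT and 25.6 to 25.7 Mb in UTX KO. The summed ATAC length of 3 macrophage genes was 4.96 to 5.17 kb in UTX WT and 3.66 to 3.89 kb in UTX KO. Sums were also lower without overlap for B cell, T cell, granulocyte, and stroma and endothelium genes, and for progenitor genes (67.9 to 79.7 kb and 66.4 to 66.6 kb), and overlapped for erythroid genes. The sum of 3 mast cell and basophil genes was 9.01 to 12.7 kb and 14.5 to 14.9 kb. Of these Cpa3 had 5.30 and 7.21 kb in UTX WT and 10.2 and 10.4 kb in UTX KO, while Mcpt8 and Gzmb overlapped between genotypes. Their part in the result was not tested.

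**Figure D4:**
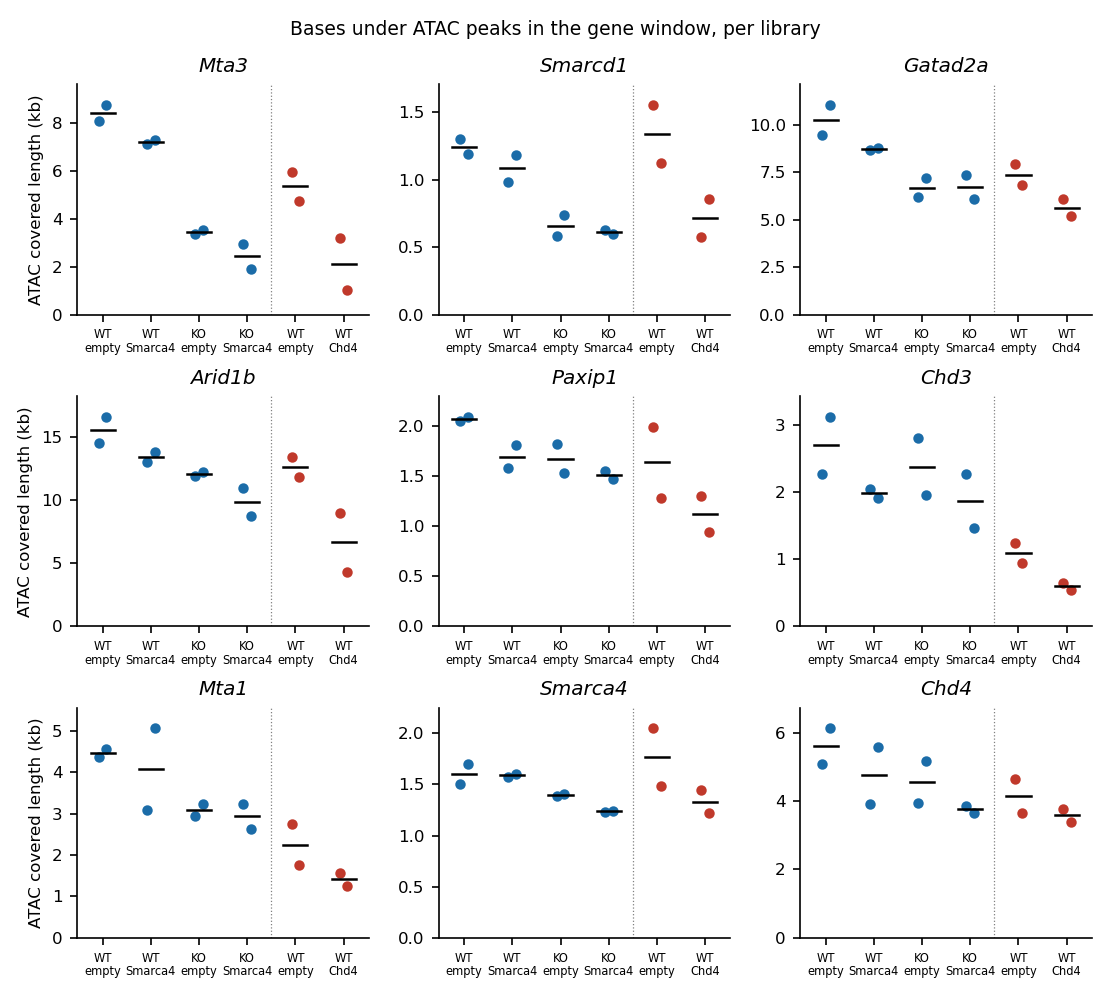
Points give the bases under ATAC peaks (kb) in the window of 9 genes for each library, and bars the mean of the 2 libraries; blue is the Smarca4 set and red the Chd4 set, separated by a dotted line. Mta3 lies at 7.12 to 8.72 kb in the 4 UTX WT libraries of the Smarca4 set and at 1.91 to 3.55 kb in the 4 UTX KO libraries.

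The Smarca4 guide in UTX WT cells was set against the same 2 empty-vector libraries as the comparison above, so the 2 comparisons are not independent. It was followed by loss of 13 of 231 ATAC regions and gain of 1, 5.63% and 0.433% of member regions against 5.97% and 0.865% of all, and 159 (68.8%) were kept, against 59.4%. Losses comprised 6 of 83 SWI/SNF regions, 4 of 77 NuRD regions, 3 of 38 of the KMT2 group and 0 of 33 for Polycomb. Arid1b lost 3 of 30, and Smarcc1, Smarcc2, Smarcd3, Chd3, Mta2, Mbd2, Gatad2a, Kmt2a, Kmt2c and Paxip1 lost 1 each. The Smarcc2 region, in the flank nearest to Myl6, was among the wider ones, with 614 and 567 bases covered with the empty vector and 0 with the guide. The gained region was at Kmt2c, with 229 and 210 bases covered. Lost regions had a median width of 304 bases.

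Covered length passed for 0 of the 45 genes with the Smarca4 guide in UTX WT, against 160 of 16475 genes (0.971%), or 208 to 302 genes when 1 of the 4 libraries was left out. An unadjusted p under 0.05 was reached by 0 members and by 8.58% of all genes. With genes without peaks included, DNA-binding subunit Arid2 passed as higher (log2 0.19, adjusted p = 0.0446). The members' median log2 difference was -0.06 against -0.08 for all genes, and 0.05 against 0.02 after scaling. Trimmed to the shortest list, 2 member regions were lost and 2 gained (0.976% each, against 2.59% and 2.2% of all regions). Losses numbered 28 and 23 without empty-vector library 1 or 2 (12.7% and 10.6%, against 13.1% of all in each case). Without guide library 2 they numbered 24 (10.5% against 11.8%).

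In UTX KO cells the Smarca4 guide was followed by loss of 14 of 185 regions and gain of 0, 7.57% of member regions against 8.45% of all for losses and 0.268% for gains, and 128 (69.2%) were kept, against 55.6%. The reference libraries are the UTX KO libraries of the genotype comparison. SWI/SNF genes held 8 of the 14 losses among 72 regions (11.1%): 4 at Arid1b and 1 each at Smarca4, Smarca2, Arid2 and Pbrm1. Losses were 2 in each of the other groups, at Mta1 and Mta3, at Crebbp and Kmt2c, and at Asxl2 and Ezh2. The Smarca4 region itself lies 5820 bases from the start site in the flank, at chr9:21609894-21610349. It had 269 and 233 bases covered in UTX KO with the empty vector and 0 with the guide, while the UTX WT libraries had 284 to 363 with or without the guide.

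Mta3 lost a further region in these cells. The region chr17:83729882-83730829 had 775 and 948 bases in UTX WT with the empty vector, 788 and 880 with the guide, 304 and 389 in UTX KO with the empty vector and 0 in UTX KO with the guide. Mta3 as a whole went from 3.38 and 3.55 kb to 2.96 and 1.91 kb (log2 -0.51, SE 0.19, adjusted p = 0.419). Covered length passed for 0 of 45 members, against 106 of 16475 genes (0.643%), and 3 members had an unadjusted p under 0.05, Mbd2, Mta3 and Smarca2, as did 11.2% of all genes. The test of whether the guide's effect differed between UTX KO and UTX WT passed for 0 of 45 genes, with 2 at an unadjusted p under 0.05 (5.15% of all genes), against 95 of 16475 genes that passed (0.577%). The members' median log2 difference was -0.11 against -0.13 for all genes, and 0.12 against 0.07 after scaling. Trimmed to the shortest list, 4 member regions were lost and 3 gained (2.56% and 1.92%, against 3.43% and 1.94% of all regions). Without guide library 1, 15.2% of member regions were lost, against 20.5% of all regions. Without empty-vector library 1 or 2 the shares were 12.6% and 14.1%, against 15.7% and 14.9%. Losses numbered 28 without guide library 1, with 2 members then past the gene test, as were 1094 of 16449 genes, and 22 and 25 without empty-vector library 1 or 2. Without 1 library the number of all genes past this test ran from 0 (without empty-vector library 2) to 1094, and that past the test of the difference between genotypes from 0 to 291.

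The Chd4 guide was followed by loss of 20 of 195 ATAC regions and gain of 0, 10.3% of member regions against 13.7% of all for losses and 0.0963% for gains, and 107 (54.9%) were kept, against 43.3%. The shares ran from 8.57% to 11.1% over the complexes: 8 of 78 for SWI/SNF, 6 of 54 for NuRD, 3 of 35 for the KMT2 group and 3 of 28 for Polycomb. Unlike in the other comparisons, some lost regions lay near a start site: 3 of the 15 with a known start site were within 1 kb of it, at Mta1, Kmt2d and Pbrm1. Only the Mta1 region lay on the start site itself. The same share among all lost regions was not computed, and the contrast with the other comparisons was not tested. The Chd4 gene, by comparison, kept all 6 of its ATAC regions, with 4.64 and 3.65 kb with the empty vector and 3.77 and 3.40 kb with the guide (log2 -0.19, SE 0.23, adjusted p = 0.502).

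The Mta1 peak lay on the start site, chr12:113097808-113098343, over the promoter printed above. It had 322 and 327 bases covered with the empty vector and 0 with the Chd4 guide, and 336 to 516 bases in all 8 libraries of the Smarca4 set. The Kmt2d peak, chr15:98869381-98870367, lay 838 bases from the start site of this H3K4 methyltransferase. It had 951 and 932 bases covered with the empty vector and 0 with the guide, the widest member region lost with this guide. Within 1 kb of the Kmt2d start site 812 and 418 bases were still covered with the guide, against 1023 and 986 without. The Pbrm1 peak, chr14:31017778-31018262, lay 876 bases from the start site, nearest to the neighbouring gene Gnl3, with 474 and 330 bases covered with the empty vector and 0 with the guide. Within 1 kb of the Pbrm1 start site 743 and 846 bases were still covered with the guide, against 1139 and 1035 without.

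Ncoa6, a coactivator in the KMT2C and KMT2D complexes, lost the peak at the 5′ end of its span, chr2:155473421-155474124, with 667 and 306 bases covered with the empty vector. The ATAC peak at Chd3 described above, chr11:69340409-69341148, was also absent with the guide (450 and 436 bases with the empty vector). Crebbp lost chr16:4074744-4075303 here, with 368 and 354 bases covered with the empty vector, and in UTX KO cells with the Smarca4 guide, with 377 and 386 bases. Arid1b lost 3 of 24 regions and Mta3 2 of 12. Single regions were lost at Rnf2, Hdac1, Mta2, Ring1, Asxl1, Smarca2, Smarcc2, Arid1a and Arid2. The lost Rnf2 region, in a gene for a Polycomb ubiquitin ligase, had 622 and 267 bases with the empty vector and no peak in any library of the Smarca4 set.

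**Figure D5:**
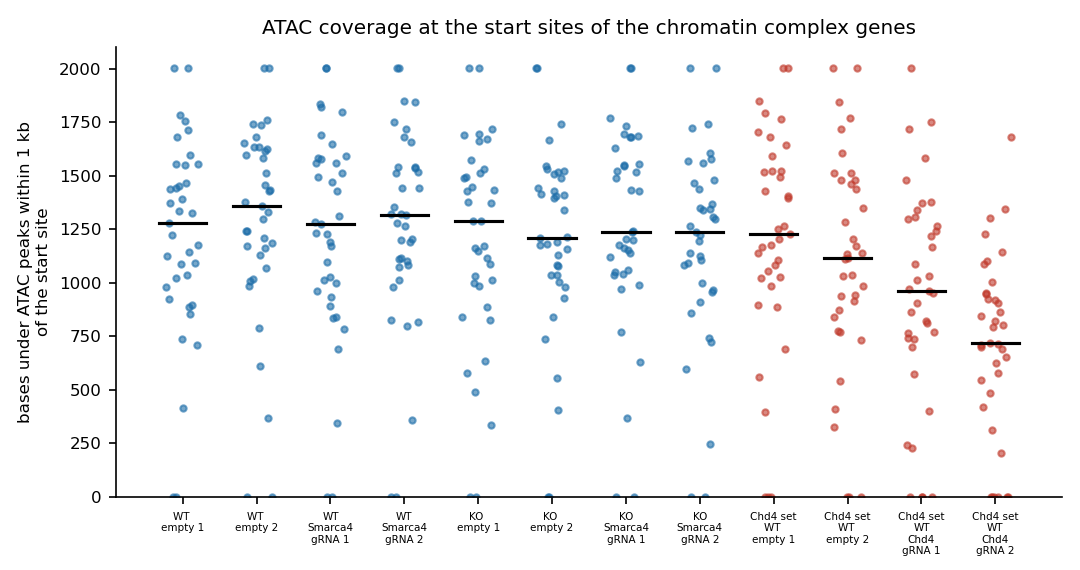
Points give the bases under ATAC peaks within 1 kb of the start site for the 37 genes with a RefSeq start site in each library, and bars the median. The medians are 1208 to 1358 bases in the Smarca4 set (blue), 1227 and 1118 with the empty vector in the Chd4 set, and 962 and 717 with the Chd4 guide (red).

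Coverage at start sites was lower with the Chd4 guide in both libraries. An ATAC peak lay within 1 kb of 34 of 37 start sites in both empty-vector libraries and of 33 and 31 with the guide, beside 54.0% and 52.2% of all genes without and 51.2% and 47.2% with it. Mta1 was without one in both guide libraries, and the Polycomb genes Bmi1 and Ring1 in the second, shorter one. Smarcd3, a BAF subunit, was without one in all 4 libraries of this set but had 825 to 1098 bases covered in the 8 libraries of the Smarca4 set. At the Smarca4 start site 1166 and 1113 bases were covered without and 1086 and 925 with the guide.

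All 45 genes had a lower mean covered length with the Chd4 guide (median log2 difference -0.58 against -0.55 for all genes), but 30 were higher once lists were scaled to equal total length (0.13 against 0.11). limma passed 0 of 45 members and 0 of 15272 genes (0%), while 13 members and 25.2% of all genes had an unadjusted p under 0.05. With a pseudocount of 50 bases 358 of 15272 genes passed, 352 of them lower. With genes without peaks included 108 of 21887 passed, 106 of them lower. In both settings 0 members passed. The lowest values were at Mta3, with 5.96 and 4.75 kb without and 3.22 and 1.04 kb with the guide (log2 -1.42, SE 0.53, adjusted p = 0.196), and at Rnf2, with 2.10 and 1.62 kb against 0.822 and 0.487 kb (log2 -1.29, SE 0.30, adjusted p = 0.165). Without guide library 1, which leaves the shortest list (24797 peaks), the losses numbered 49 and 7 members passed the gene test, as did 3626 of 15202 genes. Without empty-vector library 2 the losses numbered 43. These 49 and 43 losses are 25.3% and 22.8% of member regions, against 29.2% and 30.8% of all regions. Trimmed to equal length, 5 member regions were lost and 2 gained, 3.5% and 1.4% against 3.67% and 2.61% of all. Marker sums, which were not scaled, were also lower in this set. Total ATAC length was itself 25.2 to 30.1 Mb without and 13.2 to 19.7 Mb with the guide. Progenitor markers summed to 44.7 to 60.0 kb without and 22.4 to 34.2 kb with the guide, and granulocyte markers to 9.89 to 10.9 kb and 4.49 to 7.42 kb, against 0 to 1.25 kb in the Smarca4 set. Their part in the result was not tested.

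The wider families, 83 genes in 5 lists, had 2 calls on covered length, in comparisons where 4.56% and 0.971% of all genes passed. Actb, the actin subunit of BAF, had lower ATAC coverage in UTX KO (9.01 ± 1.3 against 4.83 ± 0.52 kb, SD, n = 2 each, log2 -0.87, adjusted p = 0.028). Dpf1, a BAF subunit, had lower coverage with the Smarca4 guide in UTX WT (1.64 ± 0.30 against 0.625 ± 0.032 kb, log2 -1.15, adjusted p = 0.0336). In UTX KO ATAC, where 11.3% of all regions were lost, 14 of 72 regions of the other BAF genes were lost (19.4%), 4 of 49 of the other COMPASS genes (8.16%), 15 of 119 of the other Polycomb genes (12.6%) and 7 of 109 of other remodellers (6.42%). These 2 genes are named because they passed the test and were picked after their values were seen.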

How the data were processed

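H3K4me1 and PU.1 ChIP-seq (10 libraries) and ATAC-seq (12 libraries) were analysed; the inputs were not used. The submitters' processing notes name Bowtie2, Bowtie, SICER, MACS2 and the mm10 build, without stating which was run on which assay. The authors deposited 1 peak list per library. The score values of the ChIP lists were made by the authors before deposit, 1 per island on a 200-base grid, by a caller and on a scale not given in the sources used here, so scores served only to rank islands within a list. The ATAC lists hold positions only. No list gives reads, so depth is unknown.

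Libraries were grouped by their labels. Peaks were merged within each assay over all its libraries and given to genes whose RefSeq span (GRCm38.p6), widened by 10 kb on each side, they touched. Covered length was fitted with limma (3.58.1, R 4.3.3) on log2(bases + 200), over genes with any covered base. Kept-region width was fitted with limma on log2(bases), without a pseudocount. All 4 groups of the Smarca4 set shared 1 fit, and the H3K4me1, PU.1 and Chd4 comparisons had a fit each. Benjamini-Hochberg adjustment ran over all genes or all kept regions, with a threshold of 0.05. Overlaps and counts used Python 3.11.15 with pandas 2.3.3. The call rule and the fits were run on simulated data as a check of the code. Losses and gains were planted by the call rule itself, so finding them says nothing about the rule. Values for the fits were drawn independently for each library, without differences in list length. Alternatives changed the pseudocount, the filter, the scaling, the window, the merging, the overlap and the list length, blocked on replicate number, and left out each library.

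The member genes and companion lists were chosen with earlier results of these data known. Named were Kdm6a, Smarca4 and Chd4, and in each comparison every member with a lost or gained region. Members past a threshold and the member with most regions per complex were named as well. Sequences of peaks and the promoters of 8 members were not analysed here.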

Additional observations from a re-analysis of the deposited data

How the results depend on the processing

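With only the upper 50% of each list, member regions lost and gained were 10 and 2 for H3K4me1 (6.58% and 1.32%, against 12% and 2.3% of all regions). For PU.1 they were 1 and 11 (0.344% and 3.78%, against 1.07% and 3.81%). In ATAC the gain in UTX KO went to 0 (1.12% of all regions). The Smarca4 guide gave 7 losses in UTX WT (5.11% against 5.27%). In UTX KO it gave 3 losses and 2 gains (2.65% and 1.77%, against 7.99% and 0.239%). With lists trimmed to the shortest, the numbers lost and gained were 11 and 7 for H3K4me1 (5.34% and 3.4%, against 7.76% and 5.24% of all regions). For PU.1 they were 10 and 13 (2.04% and 2.65%, against 2.1% and 1.82%). For UTX KO ATAC they were 6 and 5 (2.87% and 2.39%, against 5.82% and 5.46%). The Smarca4 guide gave 2 and 2 in UTX WT (0.976% each, against 2.59% and 2.2%). In UTX KO it gave 4 and 3 (2.56% and 1.92%, against 3.43% and 1.94%). The Chd4 guide gave 5 and 2 (3.5% and 1.4%, against 3.67% and 2.61%). Asking that a library cover 50% of a region gave 29 losses in UTX KO ATAC and 32 with the Chd4 guide, and for the Smarca4 guide 2 gains in UTX WT and 1 in UTX KO. Merging within the comparison gave 2 gains with the Smarca4 guide in UTX WT. For the Chd4 guide the gene span alone held 12 losses, and regions nearest to a member 13. The cause of these shifts was not tested, beyond the fewer peaks that shorter lists hold.

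Leaving out 1 library relaxes the call rule. Losses then ranged from 24 to 39 for H3K4me1 (11% to 18.1%, against 12.9% to 23.9% of all regions). For PU.1 they ranged from 7 to 13 (1.35% to 2.56%, against 1.33% to 2.58%). For UTX KO ATAC the range was 25 to 33 (11.1% to 15.3%, against 14.6% to 20.7%). The Smarca4 guide gave 17 to 28 in UTX WT (7.52% to 12.7%, against 8.35% to 13.1%). In UTX KO it gave 15 to 28 (8.15% to 15.2%, against 9.62% to 20.5%). The Chd4 guide gave 21 to 49 (10.8% to 25.3%, against 15.2% to 30.8%). Gains ranged from 5 to 14, 21 to 42, 1 to 4, 1 to 6, 1 to 2 and 0 to 1 in the same order. As shares of member regions these are 2.33% to 7%, 4.19% to 8.12%, 0.463% to 1.86%, 0.452% to 2.63%, 0.543% to 1.15% and 0% to 0.513%. Among all regions the shares gained were 2.87% to 8.58%, 3.74% to 6.18%, 3% to 4.05%, 1.8% to 5.06%, 0.66% to 3.96% and 0.203% to 1.82%. Member genes past the covered-length test numbered 0 in each such fit, except 0 to 2 for the Smarca4 guide in UTX KO and 0 to 7 for the Chd4 guide. Kept regions past the width test ranged from 1 to 9 for PU.1 and 0 to 19 for the Chd4 guide, and were 0 elsewhere. For PU.1, 1 of 288 passed without UTX KO library 3, against 2495 of 100067 of all kept regions. Without UTX KO library 1, 9 of 286 passed, against 2969 of 99068. The 19 came from the fit without Chd4 guide library 1, which leaves 1 guide library. A similar share of all kept regions passed in that fit, so the 19 do not set the members apart.

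Of the 2 genes past the test in UTX KO ATAC, 0 passed without a filter and 1, Mta3, after scaling. Other settings gave more calls. Over the gene span alone 3 members passed as lower, with Mta3 but not Smarcd1 among them, as did 730 of 14748 genes in either direction. With a pseudocount of 1000 bases 3 members passed as lower, Mta3 and Smarcd1 among them, as did 1318 of 16475 genes in either direction. Smarcd1 turned to 0.17 over the gene span alone. Without a filter 1 gene, Arid2, passed for the Smarca4 guide in UTX WT. With the replicate block, 0 members passed the covered-length test in UTX KO ATAC (Mta3 had an adjusted p of 0.0617 and Smarcd1 of 0.0796 in limma, and 381 of all genes passed), 0 genes passed in any of the other comparisons, and 0 kept PU.1 regions passed the width test. Titles share numbers across groups, but no label says what a number marks. Correlations of same-numbered libraries lay below 0.1 in every comparison, among them 0.09, 0.04 and 0.07 for the guide comparisons, and 2 libraries per group cannot show whether the numbers pair them. The unknown depth and 2 or 3 libraries per group limit every count above.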
